A study of Mus musculus with 14 samples.

Results

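The CCN genes encode secreted matricellular proteins, and 5 of them were examined here, Ccn1 to Ccn5, out of 21757 protein-coding genes with a canonical transcript in GENCODE M39 on GRCm39. They were taken by gene family name, without a threshold on any measured value but with earlier results of these data known. Ccn6, also of this family, was not in the group and is described separately. Every consensus peak was counted for a member if it overlapped the canonical transcript or the 20 kb on either side, and its summit position was taken from the transcription start site (TSS). The 3 antibodies and 2 treatments gave 6 peak lists.

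The peaks came from CUT&Tag of mouse muscle stem cells (MuSCs), an assay in which an antibody directs a transposase to its target on chromatin so that the DNA is tagged there. The MuSCs came from muscles of female mice aged 9 weeks, were sorted for the GFP of a Pax7 reporter (C57BL/6N(Tg(Pax7-EGFP)Tajb)) and were expanded in culture. All cells were kept for 6 h without serum and with 200 ng/mL soluble BMPR1A-Fc, a decoy receptor that binds free BMP, before the stimulation. The stimulus was BMP6 at 100 ng/mL, given for 1 h. Control cells were given its vehicle in place of BMP6, which was 4 mM HCl that contained 0.1% BSA. Libraries were made with antibodies against pSMAD1/5/9, SMAD4 or H3K27ac, with 2 biological replicates for each antibody and treatment, which gave 12 of the 14 libraries. The other 2 libraries had no primary antibody and were not analysed here. Each list holds the peaks on which both replicates agreed at an irreproducible discovery rate (IDR) of at most 0.05.

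BMP ligands act through receptors that phosphorylate SMAD1, SMAD5 and SMAD9, and the phosphorylated SMADs enter the nucleus with the common partner SMAD4. H3K27ac is a histone mark of active promoters and enhancers. CCN proteins are built from modules that bind insulin-like growth factors, BMPs and TGF-β, integrins and heparan sulfate, and they sit in the extracellular matrix, where they modify growth factor and adhesion signals. Ccn1 and Ccn2 are immediate-early genes and textbook targets of the YAP/TEAD and SRF transcription factors, Ccn4 and Ccn5 were first described as Wnt-induced genes, and CCN5 lacks the C-terminal cystine knot of the other members.

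After BMP6, 4 of the 5 CCN genes had a pSMAD1/5/9 peak, namely Ccn1, Ccn2, Ccn4 and Ccn5, with 18 peaks in all. In control cells Ccn1, Ccn4 and Ccn5 had 4 peaks between them. SMAD4 peaks lay at the same 4 genes in both conditions, with 19 peaks after BMP6 and 13 in control cells, and so did H3K27ac peaks, with 22 and 23. Ccn3 had no peak in any of the 6 lists. Over all protein-coding genes, 29.1% had a pSMAD1/5/9 peak after BMP6 and 5.97% in control cells, 39.3% and 30.8% had a SMAD4 peak, and 74.8% and 73.4% had an H3K27ac peak. Ccn2 was the only member with a pSMAD1/5/9 peak after BMP6 and none in control cells, a pattern that 23.5% of all genes had. For SMAD4 and H3K27ac no member had peaks after BMP6 alone, against 12.8% and 2.14% of all genes. With 5 genes, these counts are a description and were not tested.

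The lists held 7339 pSMAD1/5/9, 12860 SMAD4 and 78050 H3K27ac peaks after BMP6, and 949, 8577 and 67790 in control cells. The weakest peak in the pSMAD1/5/9 list of control cells had a signal of 15906, and that of BMP6-stimulated cells 8968. The signal is a score of the peak caller without a fixed unit, so peaks are compared by their rank within a list, where rank 1 is the strongest. The lists were cut by IDR and not by signal, so weaker or less reproducible binding cannot be read from them. The sorted cells carried H3K27ac at the TSS of 7 of 7 MuSC markers in both conditions, Pax7 and Myf5 among them. None of 3 markers of fibro-adipogenic progenitors (Pdgfra, Ly6a, Dcn), of 2 endothelial markers or of 2 immune markers had such a peak.

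**Figure D1:**
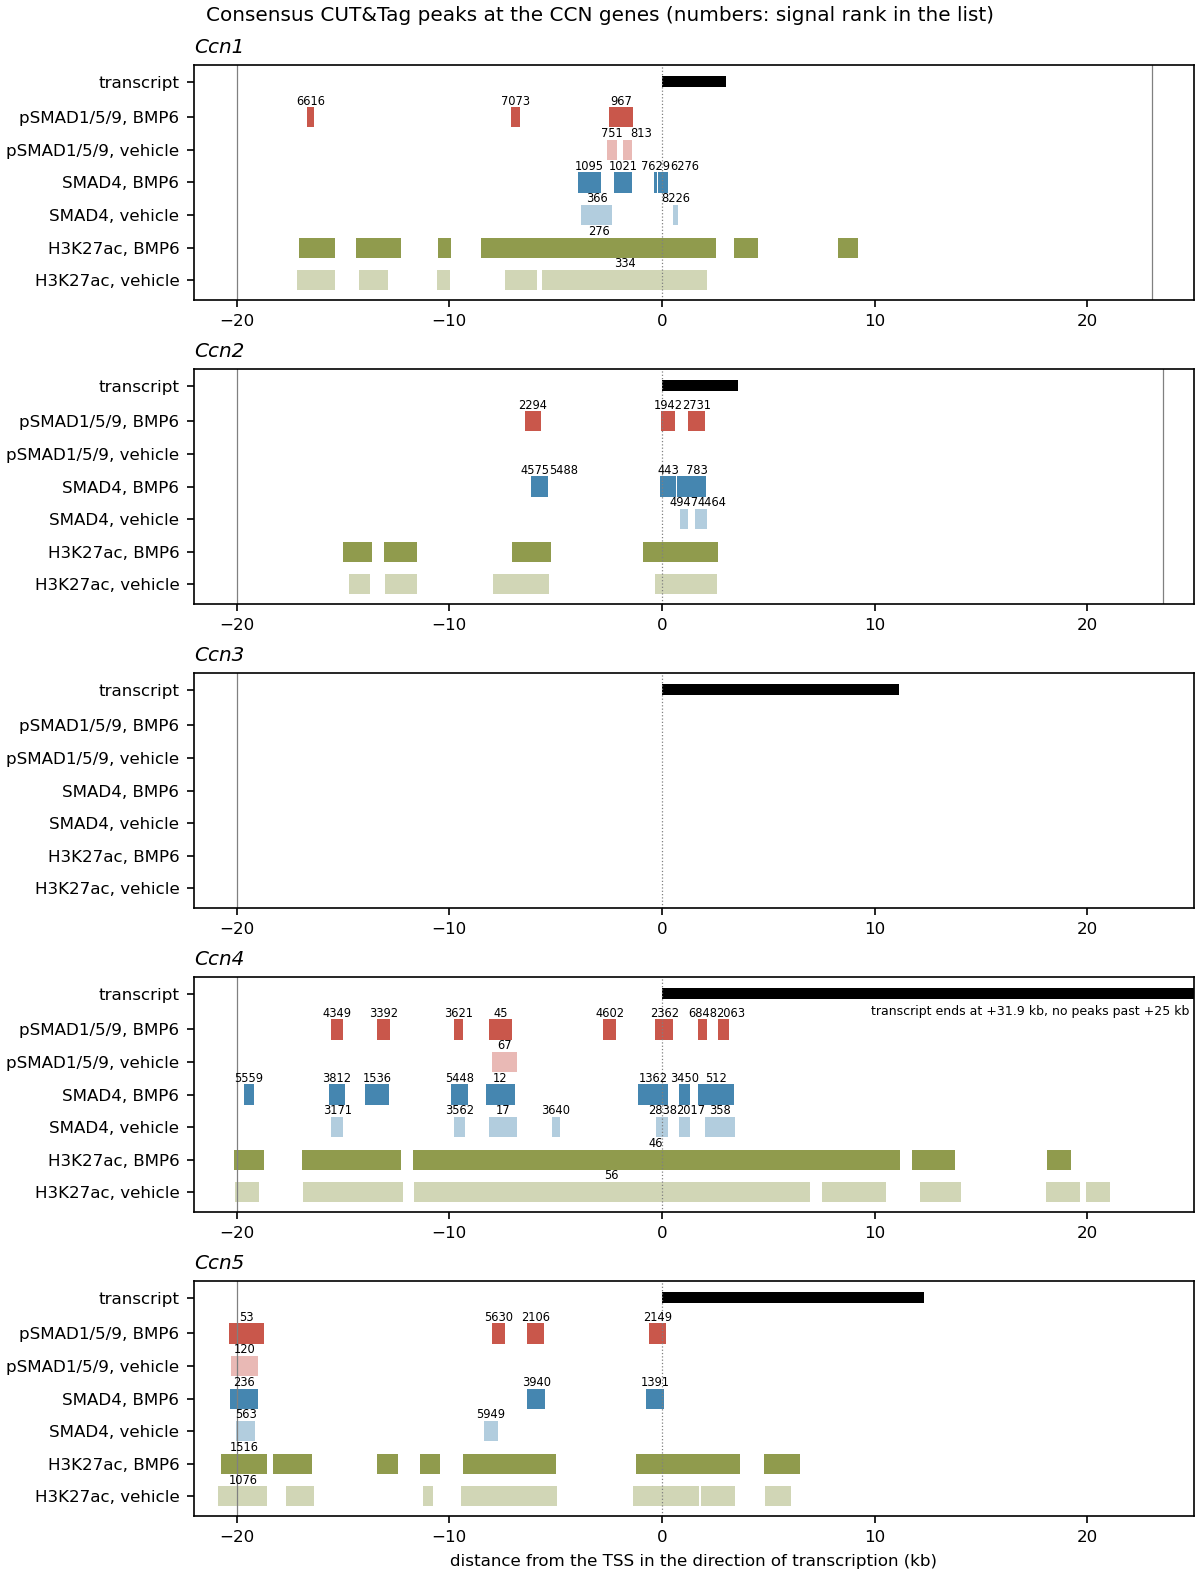
Map of all consensus peaks within 20 kb of the 5 CCN transcripts. The x axis is the distance from the TSS in kb, in the direction of transcription; each row is 1 list, coloured bars are peaks (dark after BMP6, pale in control cells), black bars are transcripts and grey lines mark the ends of the regions. Numbers are signal ranks, given for every SMAD peak and for H3K27ac peaks up to rank 2000. Ccn4 has 8 pSMAD1/5/9 peaks after BMP6 and 1 in control cells, and Ccn3 is empty.

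Ccn4 held the strongest SMAD site of the family. Ccn4 (ENSMUSG00000005124.12, formerly Wisp1) lies on the plus strand at chr15:66763159-66795050 and encodes a protein that fibro-adipogenic progenitors are known to release in muscle and that acts on MuSCs. After BMP6, a pSMAD1/5/9 peak spanned positions 66755011 to 66756105, and its summit was 7624 bp from the TSS on the upstream side. Its signal was 100385, with 63198 in one replicate column and 37187 in the other, and it ranked 45 of 7339. The peak was already listed in control cells, with a summit 7608 bp upstream, a signal of 66167 (39502 and 26665) and rank 67 of 949. SMAD4 was listed over the same stretch in both conditions, with rank 12 of 12860 after BMP6 (signal 109806, 66335 and 43471) and rank 17 of 8577 in control cells (84594, 38390 and 46204). The site thus had high ranks with and without BMP6. By a single replicate column, the SMAD4 peak of control cells ranked 58 or 5, and that of BMP6-stimulated cells 15 in both.

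The 200 bases around the pSMAD1/5/9 summit are given because this was the highest-ranking pSMAD1/5/9 site of the 5 genes after BMP6. All sequences here are from GRCm39, are written 5′ to 3′ on the strand of the gene, and have in capitals each match on either strand to GTCT (the SMAD box), GGAGCC or GGCGCC (the GC-rich BMP-SMAD element), GGAATG (bound by TEAD factors) and TGACTCA or TGAGTCA (bound by AP-1). The window at chr15:66755435-66755634 held 3 matches to GTCT, read as AGAC, and 1 match to GGAGCC, read as GGCTCC, the centre of which lay 46 bp past the summit.
Ccn4, upstream: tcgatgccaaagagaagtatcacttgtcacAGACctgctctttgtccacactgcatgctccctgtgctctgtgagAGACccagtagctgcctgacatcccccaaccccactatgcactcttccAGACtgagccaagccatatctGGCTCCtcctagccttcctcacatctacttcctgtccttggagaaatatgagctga

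The rest of the Ccn4 region was listed for pSMAD1/5/9 in BMP6-stimulated cells only. The 7 further peaks had summits 15309, 13239, 9641 and 2477 bp upstream of the TSS, 160 bp past it in the 5′ untranslated part of exon 1, and 1859 and 2966 bp past it in intron 1. They ranked between 2063 and 6848, so they were much weaker than the upstream site, and 2 of the 7 passed the stricter IDR of 0.01 (the summits at 160 and 2966 bp). SMAD4 differed less, with 8 peaks after BMP6 and 7 in control cells, of which 6 in each list overlapped a peak of the other condition. Among these, the SMAD4 peak in intron 1 ranked 512 after BMP6 and 358 in control cells, and that at the TSS 1362 and 2838. Of the 7 pSMAD1/5/9 peaks listed after BMP6 alone, those at 15309 and 9641 bp upstream and at 160, 1859 and 2966 bp past the TSS overlapped a SMAD4 peak of control cells.

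An H3K27ac domain of 22890 bp spanned both the upstream site and the TSS of Ccn4 after BMP6, and ranked 46 of 78050. In control cells it overlapped 2 peaks, 1 of 18600 bp that ranked 56 of 67790 and 1 of 3000 bp that ranked 14058. All H3K27ac peaks of the Ccn4 region covered 32060 bp after BMP6 and 32000 bp in control cells. The replicate columns differed for the domain after BMP6, with 4829 and 18758, which would rank 1707 or 30 alone. The larger control peak had 11500 and 12864. The 3 markers of fibro-adipogenic progenitors had no H3K27ac peak at the TSS in either list, and which cells carried the domain was not tested. Ndrg1 was the only other protein-coding gene whose body reached into the region of a member, and it shared only H3K27ac peaks in intron 2 of Ccn4, 1 after BMP6 and 2 in control cells, with 44966 as their best rank.

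Ccn5 showed a distal site present in both conditions and a promoter site listed after BMP6 alone. Ccn5 (ENSMUSG00000027656.9, formerly Wisp2) lies on the plus strand at chr2:163662753-163675066 and encodes the member without the C-terminal module, known for restraining proliferation in several cell types. Its strongest pSMAD1/5/9 peak lay 19664 bp upstream of the TSS, from 163642402 to 163644039, across the outer edge of the 20 kb region. It had a signal of 98970 (62329 and 36641) and ranked 53 after BMP6, and in control cells it had 56482 (29390 and 27091) and ranked 120. SMAD4 ranked 236 there after BMP6 and 563 in control cells. The nearest protein-coding TSS was that of Ccn5, but the TSS of the lncRNA Gm75741 was nearer, at 11340 bp. This sequence at chr2:163642989-163643188 is shown because its pSMAD1/5/9 rank was close to that of the Ccn4 site. It held 1 match to GTCT and 1 to GGAATG, read as CATTCC.
Ccn5, distal: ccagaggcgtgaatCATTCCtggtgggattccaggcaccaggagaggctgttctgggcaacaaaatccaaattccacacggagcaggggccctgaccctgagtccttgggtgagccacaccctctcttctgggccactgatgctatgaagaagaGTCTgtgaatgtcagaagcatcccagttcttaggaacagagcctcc

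At the TSS of Ccn5, pSMAD1/5/9 had a peak after BMP6 with its summit 3 bp past the TSS (signal 27567, 15659 and 11908, rank 2149), and SMAD4 had one with its summit 112 bp upstream (signal 27737, 18907 and 8831, rank 1391). Both passed the IDR of 0.01, and no SMAD peak was listed there in control cells. The same held at a second stretch upstream, where pSMAD1/5/9 ranked 2106 (summit 5828 bp from the TSS) and SMAD4 3940 (summit 5835 bp from it). H3K27ac was listed at the TSS in both conditions, with rank 9767 after BMP6 and 14268 in control cells. By a single replicate column these were 17233 or 5992 and 11112 or 18856, so the conditions overlapped. Around that second stretch H3K27ac ranked 8696 after BMP6 (6899 or 10403 by column) and 2169 in control cells (919 or 8565). The remaining pSMAD1/5/9 peak, 7674 bp upstream, was weak at rank 5630 and overlapped a SMAD4 peak that was listed in control cells alone (rank 5949). The summit of this pSMAD1/5/9 peak lay 650 bp from the TSS of the lncRNA Gm75741.

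The 200 bases before the TSS of Ccn5, at chr2:163662553-163662752, are shown because they lie under the peaks listed after BMP6 alone. They held 5 matches to GTCT and none to the other motifs. At least 5 matches to GTCT occurred in 393 of the 21757 promoters of this length (1.81%), and at least 1 in 75.7%.
Ccn5, promoter: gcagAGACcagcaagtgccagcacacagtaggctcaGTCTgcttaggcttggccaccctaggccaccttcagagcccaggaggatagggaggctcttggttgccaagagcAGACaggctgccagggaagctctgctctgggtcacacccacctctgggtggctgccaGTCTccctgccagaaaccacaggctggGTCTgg

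Ccn2 had no pSMAD1/5/9 peak in control cells and 3 after BMP6. Ccn2 (ENSMUSG00000019997.13, formerly Ctgf) lies on the plus strand at chr10:24471333-24474900 and encodes a profibrotic matrix protein that is induced by TGF-β. The pSMAD1/5/9 peaks had summits 362 bp past the TSS in intron 1 (rank 1942, signal 29348, 18214 and 11134), 1399 bp past it in exon 4 (rank 2731, 23852, 9968 and 13884) and 6067 bp upstream (rank 2294, 26617, 12993 and 13624). All 3 passed the IDR of 0.01. They ranked in the upper 26.5% to 37.2% of their list, far below the strongest sites of Ccn4 and Ccn5. The summit in exon 4 lay nearer to the TSS of the lncRNA Gm15270, at 280 bp.

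SMAD4 was listed at Ccn2 in both conditions, with its strongest peak after BMP6 at the TSS. This peak, with its summit 69 bp past the TSS, ranked 443 of 12860 after BMP6 (signal 44375, 29093 and 15282) and had no counterpart in control cells. The adjoining peak in the gene body, with its summit 1166 bp past the TSS, ranked 783 and overlapped both SMAD4 peaks of control cells, which ranked 4947 and 4464 of 8577 and did not pass the IDR of 0.01. A further 2 SMAD4 peaks, 5919 and 5568 bp upstream with ranks 4575 and 5488, were listed after BMP6 alone and both overlapped the upstream pSMAD1/5/9 peak. H3K27ac was listed at Ccn2 in both conditions. Each had 4 peaks, each of which overlapped one of the other condition, and the strongest, across the TSS, ranked 6234 and 5655.

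The upstream pSMAD1/5/9 site of Ccn2, chr10:24465166-24465365, is shown because pSMAD1/5/9 and SMAD4 were listed there after BMP6 alone. It had 2 matches to GTCT, read as AGAC, the nearer one centred 4 bp before the summit, and an AP-1 motif.
Ccn2, upstream: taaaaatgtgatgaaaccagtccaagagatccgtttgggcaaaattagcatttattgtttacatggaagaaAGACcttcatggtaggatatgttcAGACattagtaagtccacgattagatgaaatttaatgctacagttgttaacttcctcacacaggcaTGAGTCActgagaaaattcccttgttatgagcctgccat

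Ccn1 had pSMAD1/5/9 on its upstream flank in both conditions. Ccn1 (ENSMUSG00000028195.6, formerly Cyr61) lies on the minus strand at chr3:145352720-145355738 and encodes an integrin ligand that serum and mechanical load induce within minutes. After BMP6, 1 peak with its summit 1630 bp upstream had a signal of 42103 (26117 and 15986) and ranked 967 of 7339. It overlapped both pSMAD1/5/9 peaks of control cells, with summits 1536 and 2399 bp upstream. Those had signals of 20663 (11872 and 8791) and 22135 (11964 and 10171), ranked 813 and 751 of 949, and missed the stricter IDR. The other 2 pSMAD1/5/9 peaks after BMP6, 6753 and 16429 bp upstream, ranked 7073 and 6616 and were among the weakest of the list, with −log10 IDR of 1.33 and 1.51.

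SMAD4 at Ccn1 was listed over 4 stretches after BMP6 and 2 in control cells. The peak 3367 bp upstream ranked 1095 after BMP6 and overlapped the strongest SMAD4 peak of Ccn1 in control cells, 3141 bp upstream, which ranked 366 of 8577. The SMAD4 peak 1956 bp upstream, which overlapped the pSMAD1/5/9 peak, ranked 1021 and was not listed in control cells. Nor were those 281 and 41 bp upstream, with ranks 7629 and 6276. An H3K27ac domain of 11060 bp, which ran across these peaks and the TSS, ranked 276 of 78050 after BMP6, and one of 7800 bp ranked 334 of 67790 in control cells. The domain after BMP6 also overlapped a further control peak of 1500 bp, which ranked 22207.

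The window at the strongest pSMAD1/5/9 summit of Ccn1, chr3:145357268-145357467, held 1 match to GTCT and none to the other motifs.
Ccn1, upstream: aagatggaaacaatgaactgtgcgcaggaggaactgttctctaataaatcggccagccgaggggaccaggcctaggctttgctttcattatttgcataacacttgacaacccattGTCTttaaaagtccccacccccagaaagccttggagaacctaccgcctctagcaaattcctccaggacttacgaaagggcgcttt
The promoter of Ccn1 at chr3:145355739-145355938 is shown because a SMAD4 peak listed after BMP6 alone lay across it. It held no GTCT, 1 match to GGAATG, read as CATTCC, which 9.48% of all promoters of this length held, and 3 matches to GGAGCC or GGCGCC, a number that 1.15% of all promoters reached.
Ccn1, promoter: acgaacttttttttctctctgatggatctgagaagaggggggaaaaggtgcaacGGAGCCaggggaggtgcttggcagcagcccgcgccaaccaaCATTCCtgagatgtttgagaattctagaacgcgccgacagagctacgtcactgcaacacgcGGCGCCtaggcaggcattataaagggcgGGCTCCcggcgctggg

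Ccn3 (ENSMUSG00000037362.10, formerly Nov) lies on the plus strand at chr15:54609012-54620154 and encodes a member often found to oppose CCN2. No pSMAD1/5/9, SMAD4 or H3K27ac peak was listed within 20 kb of it in either condition. With 50 kb on either side, all 5 members had an H3K27ac peak in both conditions, so that Ccn3 had acetylated chromatin farther away, but still no SMAD peak. Ccn6, the family gene outside the group examined, likewise had no SMAD peak. It had 3 H3K27ac peaks after BMP6 and 2 in control cells, the strongest at the TSS of its neighbours Fam229b and Tube1. The peak across the TSS of Ccn6 itself ranked 48237 of 78050 and was listed after BMP6 alone.

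H3K27ac at the 4 acetylated members was mostly listed in both conditions. The 3 peaks listed after BMP6 alone lay 3836 and 8798 bp past the TSS of Ccn1, beyond its end, and 13119 bp upstream of Ccn5. They ranked 52087, 75490 and 77085 of 78050, and 2 of the 3 had a signal under that of the weakest H3K27ac peak retained in control cells. The 1 peak listed in control cells alone, in intron 2 of Ccn4, ranked 59687 of 67790. At Ccn5 the strongest H3K27ac peak lay over the distal SMAD site and not at the TSS, with rank 1516 after BMP6 (6570 and 4520) and 1076 in control cells (6153 and 7012). By the first replicate column of control cells, the peak 5912 bp upstream was the strongest of Ccn5 instead, with 7749 and rank 919. The acetylated stretch over the upstream SMAD site of Ccn2 ranked 12121 after BMP6 (3007 and 2524) and 21568 in control cells (2036 and 2115). The stretch 5831 bp upstream of Ccn5 differed the other way, with rank 8696 after BMP6 and 2169 in control cells. Signals were not scaled between lists, and neither difference was tested. Upstream of Ccn1, a peak at the weak pSMAD1/5/9 site 16429 bp from the TSS ranked 6272 after BMP6 and 7336 in control cells.

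**Figure D2:**
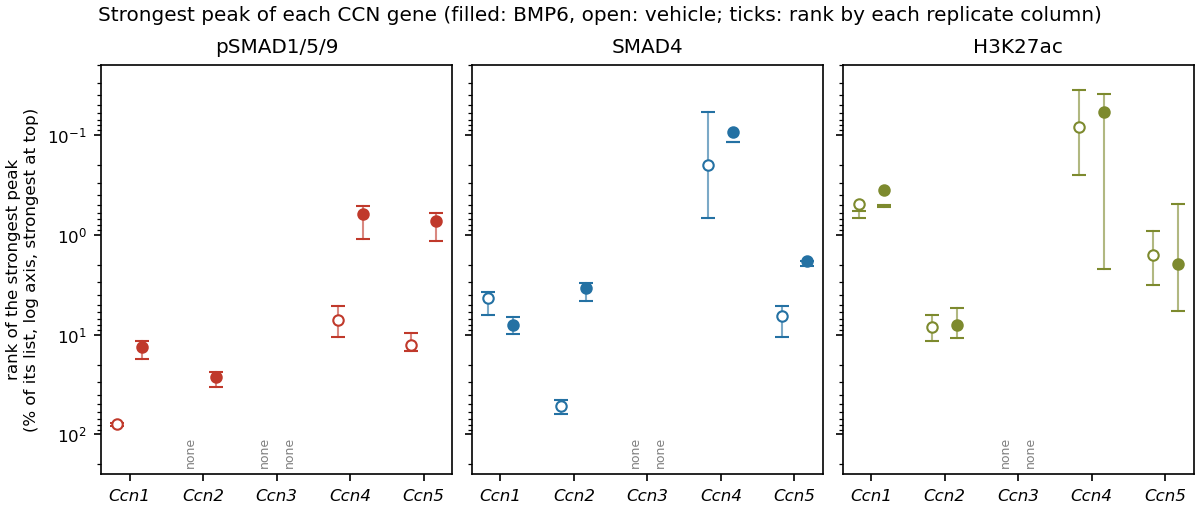
Rank of the strongest peak of each CCN gene as a percent of its list, on a log axis with the strongest at the top, for pSMAD1/5/9, SMAD4 and H3K27ac. Filled circles are BMP6 and open circles vehicle, each ranked by the consensus signal, and the ticks joined by a line are the ranks by each replicate column. Ccn4 is highest in all 3 panels, at 0.613%, 0.0933% and 0.0589% after BMP6, and its H3K27ac columns after BMP6 lie far apart. The lists of both treatments differ in length, so a difference in percent between them is not a measure of change.

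The order of the strongest pSMAD1/5/9 peaks after BMP6 was Ccn4 (rank 45), Ccn5 (53), Ccn1 (967) and Ccn2 (1942). By the replicate columns, Ccn4 ranked 38 and 81 and Ccn5 44 and 84, so Ccn4 was narrowly ahead in each column and their ranges overlapped. Ccn1 ranked 850 and 1295 and Ccn2 1728 and 2478, and these ranges did not overlap each other or those above. For SMAD4 after BMP6 the order was Ccn4 (12), Ccn5 (236), Ccn2 (443) and Ccn1 (1021), so Ccn1 and Ccn2 changed places. The columns kept these apart, at 237 and 262 for Ccn5, 388 and 588 for Ccn2 and 1256 and 854 for Ccn1. In control cells the SMAD4 order was Ccn4 (17), Ccn1 (366), Ccn5 (563) and Ccn2 (4464). There the ranges of Ccn1 (324 and 543) and Ccn5 (438 and 914) overlapped, but Ccn1 ranked ahead in each column.

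**Figure D3:**
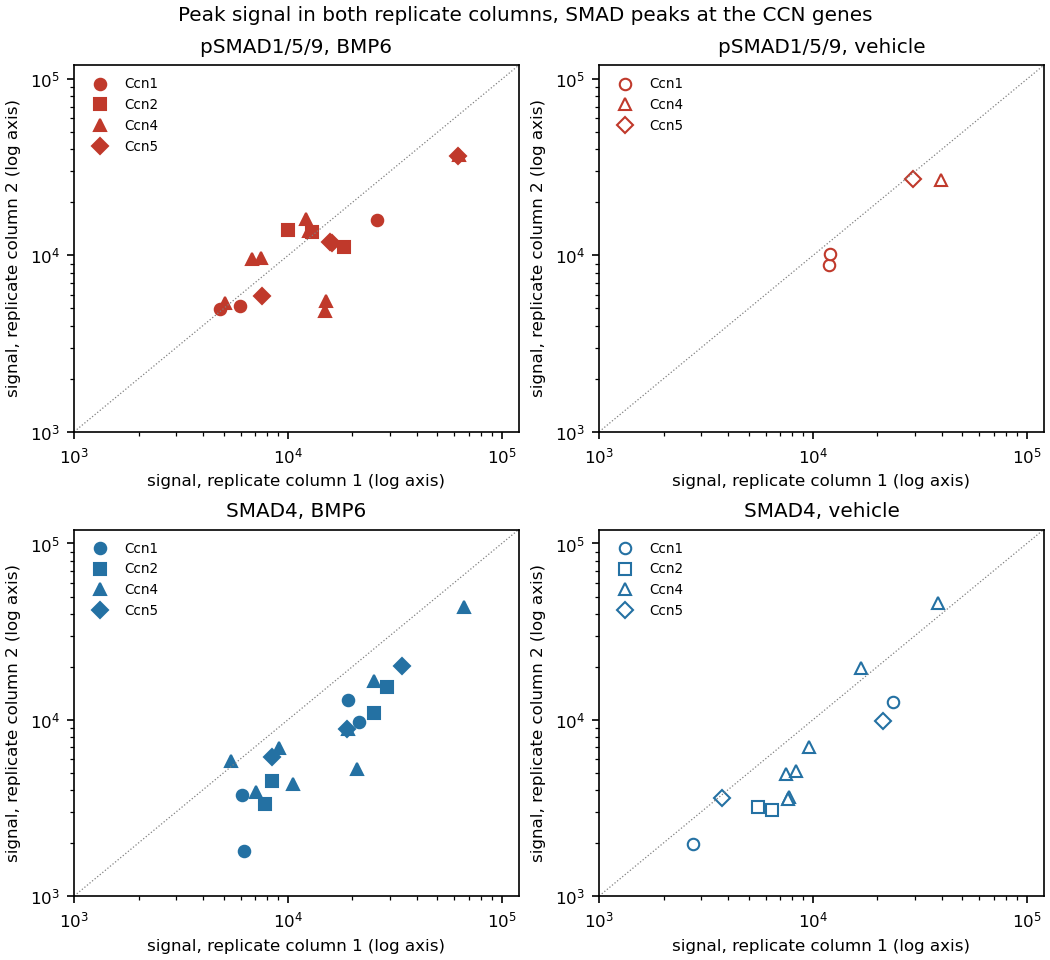
Signal of every pSMAD1/5/9 and SMAD4 peak at the CCN genes in replicate column 1 (x axis) against replicate column 2 (y axis), both on log axes and without a unit. Filled symbols are BMP6, open symbols vehicle, shapes are genes, and the dotted line marks equal values. The Ccn4 and Ccn5 upstream sites nearly coincide after BMP6, at 63198 and 37187 against 62329 and 36641, and 18 of 19 SMAD4 peaks after BMP6 lie below the line.

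Between conditions, 3 of the 18 pSMAD1/5/9 peaks after BMP6 overlapped one of control cells, 1 each at Ccn1, Ccn4 and Ccn5, against 11.4% of the whole list. In the other direction, 4 of 4 control peaks overlapped one after BMP6, against 84.7%. Of the 15 peaks listed after BMP6 alone, 4 had a signal under that of the weakest peak retained in the control list, and 11 did not. Signals were not scaled between lists, so this does not show which of them could have been listed in control cells. For SMAD4, 9 of 19 peaks after BMP6 (45.5% of the list) and 10 of 13 in control cells (69.7%) were shared. For H3K27ac these were 19 of 22 (72.0%) and 22 of 23 (86.8%). Within BMP6-stimulated cells, 14 of 18 pSMAD1/5/9 peaks overlapped SMAD4 (73.2% of the list) and 18 of 18 lay in H3K27ac (98.2%). Seen from SMAD4, 14 of 19 peaks after BMP6 overlapped pSMAD1/5/9, against 42.7% of the list. Of the 22 H3K27ac peaks after BMP6, 9 overlapped pSMAD1/5/9 (7.65% of the list) and 9 SMAD4 (12.4%). In control cells 3 of 13 SMAD4 peaks overlapped pSMAD1/5/9 (10.1%), and of 23 H3K27ac peaks 3 overlapped pSMAD1/5/9 (1.29%) and 6 SMAD4 (9.87%). All these shares lay above those of the lists, by the largest ratios for H3K27ac peaks that overlapped pSMAD1/5/9 or SMAD4. None of the differences was tested. By position, 6 of the 18 pSMAD1/5/9 peaks after BMP6 were within 2 kb of the TSS, 11 were intergenic and 1 lay in an intron.

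**Figure D4:**
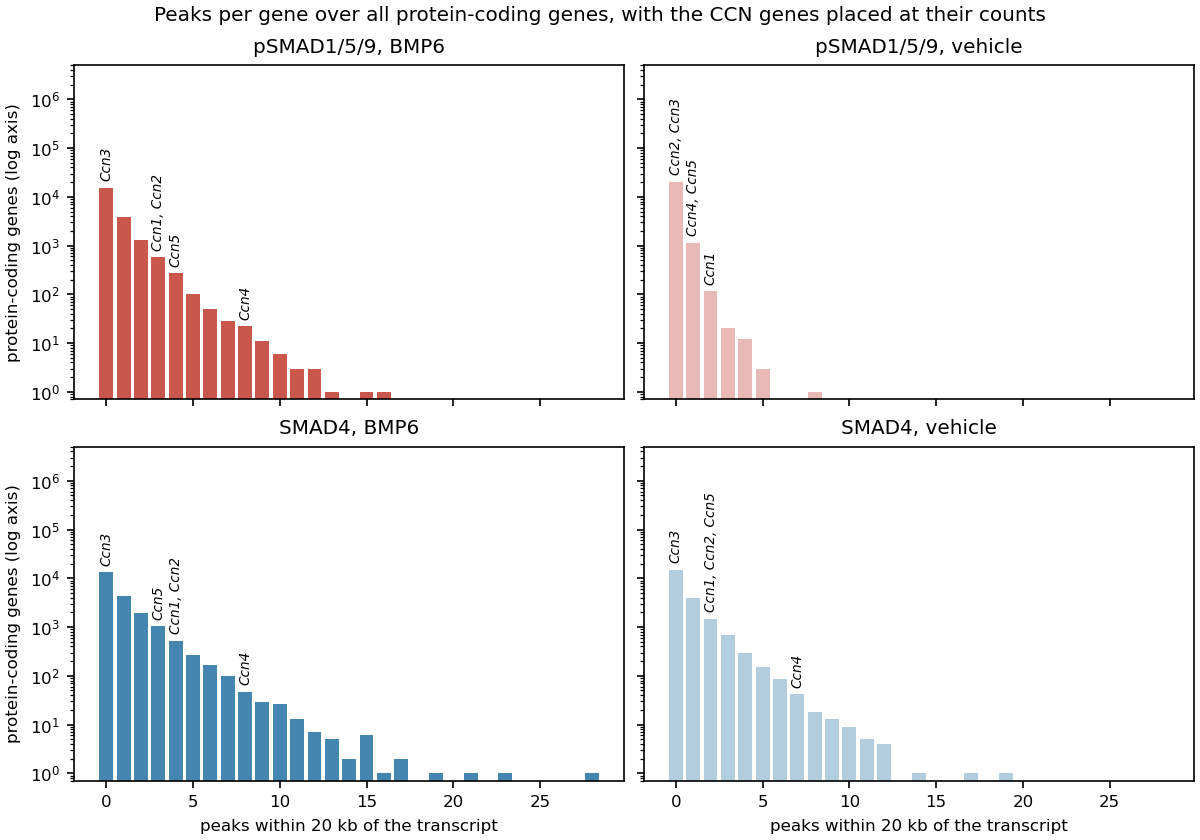
Number of protein-coding genes (y axis, log) with a given number of peaks within 20 kb of the transcript (x axis), for both SMAD antibodies and both treatments, with the CCN genes written above the bar of their count. For pSMAD1/5/9 after BMP6, Ccn4 stands at 8 peaks, where 0.221% of genes had as many or more, Ccn5 at 4, Ccn1 and Ccn2 at 3, and Ccn3 at 0.

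Against all genes, 8 or more pSMAD1/5/9 peaks after BMP6, the count of Ccn4, were found at 48 genes (0.221%). As many as the 4 of Ccn5 were found at 2.28% and as many as the 3 of Ccn1 and Ccn2 at 4.95%, and the median of the bound genes was 1. The region of Ccn4 was 71892 bp long and those of the other members 43019 to 52314 bp, and the median over all genes was 56274 bp. By strength, 0.299% of genes had a strongest pSMAD1/5/9 peak as high as that of Ccn4, 0.345% as that of Ccn5, 5.46% as that of Ccn1 and 10.3% as that of Ccn2. In control cells 2 or more pSMAD1/5/9 peaks, the count of Ccn1, were found at 0.703% of genes. Those of Ccn1 ranked only 813 and 751 of 949, missed the stricter IDR and overlapped the same peak after BMP6.

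The SMAD box GTCT was in 16 of the 18 summit windows of 200 bp under the pSMAD1/5/9 peaks after BMP6, and in 81.0% of those of the whole list. GGAGCC or GGCGCC was in 3 of 18 (30.2% of the list), GGAATG in 2 (15.8%), TGACTCA or TGAGTCA in 4 (15.5%) and CAGCTG, an E-box of the kind that myogenic factors bind, in 1 (31.1%). The palindromic SMAD element GTCTAGAC, which contains GTCT, was in none (0.518%), nor was the CArG box of SRF (1.42%). Under the SMAD4 peaks after BMP6, GTCT was in 16 of 19 windows (83.0%), GGAATG in 5 (15.0%) and the CArG box in 1 (1.24%). Matches are letters on either strand and describe the sequence only.

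The protein-coding genes closest to each member in rank over the 6 lists were found by the Euclidean distance between the relative ranks of their strongest peaks. These were Iqsec1 for Ccn1 (distance 0.0401), followed by Gm36210 and Zfp628, which share their peaks. For Ccn2 they were Prrx2 (0.0749), Zfp516 and Tmcc1. None of these had a pSMAD1/5/9 peak in control cells, but that list is 1 of the 6 by which they were chosen. The closest genes to Ccn4 were Pdlim7, Dok3 and Ddx41 (0.00840 each), which share the same peaks and count as 1 locus. Sh3glb1 (0.0361), Zfp36l1 and Creb3l1 were nearest to Ccn5. The distance uses 1 value per list, so it describes likeness over 6 values only.

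Among 9 genes for receptors and co-receptors of CCN proteins, 5 had a pSMAD1/5/9 peak after BMP6 (29.1% of all genes) and 1 in control cells (5.97%). These were, by rank, the integrin subunit Itgb5 (397), the heparan sulfate proteoglycan Sdc4 (853), the endocytic receptor Lrp1 (1095), Itga5 (3116) and Itgb1 (4398), and Lrp1 was the one listed in control cells. SMAD4 was listed at 8 of 9 after BMP6 (39.3% of all genes) and 5 of 9 in control cells (30.8%). The median number of pSMAD1/5/9 peaks after BMP6 was 1 for these receptors and 0 over all genes. For H3K27ac after BMP6 the medians were 8 and 3, and region lengths were not compared for this list. Of 8 other matricellular genes, 3 had pSMAD1/5/9 after BMP6 (29.1% of all genes) and none in control cells (5.97%). The 3 were Sparc (1586), which encodes a collagen-binding protein, Tnc (3433) for tenascin-C and Thbs1 (4552) for thrombospondin. Of 20 further YAP/TEAD target genes, 12 had pSMAD1/5/9 after BMP6 (29.1% of all genes) and 3 in control cells (5.97%). Amotl2 (273), Crim1 (1282), Tgfb2 (1345) and Ankrd1 (1382) were at the top. SMAD4 was listed at 15 of the 20 after BMP6 (39.3% of all genes) and 10 in control cells (30.8%). The median number of H3K27ac peaks after BMP6 was 8.5 for these targets and 3 over all genes. None of the lists was tested for enrichment, and region lengths were not compared for any of them.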

How the data were processed

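Groups of CUT&Tag libraries were formed from the antibody and treatment in their labels. Per the methods and the submitters' processing notes, the authors brought the libraries of an antibody to equal depth by subsampling, used Bowtie2 2.5.4 to align to GRCm39, filtered alignments with SAMtools 1.21 and bedtools 2.31.1, called peaks per replicate with JAMM, and combined replicates by IDR at 0.05. The deposited signal is a score of the peak caller without a unit and equals the sum of both replicate columns. The lists also give a scaled IDR score, and the authors give the IDR as −log10. The lists include no read counts, so the reads behind a single peak are unknown, and the 2 replicates limit the precision.

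Summits, ranks and overlaps of at least 1 bp were computed from 1-based positions in Python 3.11.15 with numpy 2.4.6, pandas 2.3.3 and pysam 0.24.0, and figures with matplotlib 3.10.9. A peak was at a TSS within 2 kb of it, and otherwise exonic, intronic or intergenic. Motifs were counted in 200 bp around each summit and before each TSS. The promoter sequence of Ccn2 is not reported here. The overlap procedure was checked on simulated data. No test was made, because each list is 1 consensus per condition.

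The members were taken by name and the gene lists from general knowledge, but both with earlier results of these data known. Genes were named by a rule that took the 5 members, Ccn6, the 3 nearest genes by rank for each bound member, genes that share a peak with a member, and up to 4 examples per list by pSMAD1/5/9 rank after BMP6. Itgb1 was added to complete a count after its value was seen. Alternatives covered the IDR threshold, the region, the overlap, merged peaks, all transcripts, each replicate column left out, the scaled score and the motif window.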

Additional observations from a re-analysis of the deposited data

How the results depend on the processing

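Over 31 counts and median ranks, 122 alternative values were computed, of which 88 stayed close to the value reported and 34 moved. Close meant a ratio of at most 1.5 for counts. For median ranks it meant a difference below the standard deviation of the values from the 2 replicate columns, which are themselves among the alternatives. The count of members with a SMAD peak after BMP6 was 4 of 5 under every alternative run. At an IDR of 0.01, pSMAD1/5/9 peaks fell to 10 after BMP6 and 2 in control cells, and 2 of these 2 control peaks overlapped a BMP6 peak. When the overlap had to cover at least 0.5 of both peaks, 2 of 4 control peaks did. In the region from 1.5 kb before to 0.5 kb past the TSS, the peaks were 4 after BMP6 and 1 in control cells for pSMAD1/5/9, 6 and 1 for SMAD4, and 4 and 4 for H3K27ac, and 1 member had pSMAD1/5/9 and 1 had SMAD4 in control cells. With 10 kb on either side H3K27ac peaks were 12 and 14, and with 50 kb 43 and 43, with 29 SMAD4 peaks after BMP6. The stricter threshold and the fewer or more bases searched account for these by construction.

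The median rank of the members' strongest peaks by 1 replicate column lay between 447 and 689.5 for pSMAD1/5/9 after BMP6, 101 and 140 in control cells, 312.5 and 425 for SMAD4 after BMP6, 381 and 728.5 in control cells, 1050 and 2469 for H3K27ac after BMP6, and 505 and 690 in control cells. By the scaled IDR score it was 1272 for pSMAD1/5/9 after BMP6, 2124.5 and 1099.5 for SMAD4, and 26504.5 and 23636 for H3K27ac. This score is capped at 1000, and the strongest peaks of the 4 bound members tied at that cap in each list after BMP6, so their order by signal does not appear under it. In whole pSMAD1/5/9 peaks after BMP6, 6 held GGAGCC or GGCGCC, 9 GGAATG, 8 an AP-1 motif, 1 a CArG box and 10 CAGCTG, and in windows of 100 bp 1 held GGAATG and 2 an AP-1 motif. No paired analysis was possible because the replicate columns carry no number and no result comes from a test. The lists hold only peaks past the IDR threshold and no reads, so a peak listed in 1 condition alone does not show absence in the other.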
